A study of Mus musculus with 12 samples.

Results

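The 10 genes described here encode proteins of the microRNA pathway: Drosha, Dgcr8, Xpo5, Dicer1, Ago1, Ago2, Ago3, Tnrc6a, Tnrc6b and Mov10. They were picked by Ensembl identifier, each on its stated chromosome, and all 10 were present among 55416 annotated genes. The mouse samples were whole fetal ovaries taken at E16.5 (days of embryonic age), each a pool of 5 pairs. Samples were labelled Fmr1 knockout (KO), with no statement on whether both alleles were lost, or wild type (WT), which the design text calls littermates for the input. All samples carried the strain label B6.129P2-Fmr1tm1Cgr/J, the WT samples included. No other treatment or age was used. Each genotype had 3 input libraries of total RNA and 3 of RNA pulled down through FMRP, the RNA-binding product of Fmr1 (RNA immunoprecipitation, RIP). The strain's allele is not limited to a cell type, and germ cells were not separated from somatic cells. In whole ovaries, fewer cells of a type and less RNA per cell cannot be told apart. Markers of the ovary's cell types were not analysed here, because the tables at hand did not link their symbols to the identifiers in the files.

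MicroRNAs are made in steps. In the nucleus, the ribonuclease Drosha and its RNA-binding cofactor Dgcr8 cut hairpins out of longer transcripts, exportin 5 (Xpo5) carries them to the cytoplasm, and Dicer1 cuts them to mature length. Argonaute proteins (Ago1, Ago2, Ago3) hold the mature strand and find targets, the GW182 proteins Tnrc6a and Tnrc6b recruit the machinery that shortens poly(A) tails, and the helicase Mov10 associates with Argonautes. In mouse oocytes Dicer1 and Ago2 also serve endogenous short interfering RNAs, and microRNA activity is known to be low in growing oocytes. FMRP has been linked to this machinery as a partner of Argonautes, Dicer1 and Mov10.

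Dgcr8 carries microRNA hairpins in its own exons, and a set of its RIP values is also listed for features at that place. The hairpin of miR-1306 and that of miR-3618 (listed as Gm24572) both lie inside Dgcr8, where cutting by Drosha and Dgcr8 itself is known to lower the Dgcr8 transcript. The RefSeq table (build GRCm38.p6) places the miR-1306 hairpin at chr16:18284239-18284317 on the minus strand. It is printed 5′ to 3′ with both mature arms in capitals, to show the substrate that this member holds.
Mir1306 hairpin: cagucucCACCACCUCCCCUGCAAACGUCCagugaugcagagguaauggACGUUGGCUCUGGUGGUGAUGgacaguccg
The 4 mature strands of both hairpins follow, with the seed (bases 2 to 8, which pairs with targets) in capitals. The 4 seeds were all different.
mmu-miR-1306-5p: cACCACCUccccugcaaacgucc
mmu-miR-1306-3p: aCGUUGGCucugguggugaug
mmu-miR-3618-5p: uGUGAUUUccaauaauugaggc
mmu-miR-3618-3p: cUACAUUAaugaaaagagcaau
Of the other members, Xpo5 contains the hairpin Mir693 and Tnrc6b contains Mir5113, so that 3 of the 10 genes hold 4 hairpins of the table.

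Input libraries held 18880238 to 25707718 counted reads. Fmr1, the targeted gene (ENSMUSG00000000838, X chromosome), stood at 85.6, 123 and 93.4 CPM (counts scaled to library size) in the KO libraries and at 204, 213 and 221 CPM in the WT libraries. Its log2 change was -1.08 (SE 0.11, adjusted p = 0.00775, edgeR), so the input carried the label's difference, although 47.3% of the WT level remained. Over the 23698 genes tested, 10 passed, all lower in KO. In the RIP table described below, the row of Fmr1 had ratios of 0.388, 0.439 and 0.439 in KO and 1.34, 1.43 and 1.40 in WT. WT lay 3.30-fold above KO without overlap, while the input level of Fmr1 differed too, and the part of that in the ratio was not tested. This row was among 82 of 14447 left out for a mean under 1. With them kept, it was the single row of the table that passed (difference of log2(ratio + 1) 0.75, SE 0.054, adjusted p = 0.0216, limma). The files do not give the depth behind the RIP ratios. In the RIP table the 99th percentile of the ratios was 25.1, 17.1 and 21.7 in KO replicates 2 and 3 and WT replicate 1, and 10.4, 10.3 and 11.6 in the other 3 libraries, a split that did not follow genotype. The p-values measure the spread between pools, with variances partly shared over all genes or rows. Those of the input also hold the sampling noise of counts.

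All 10 genes were expressed in the input. Per length, the highest exceeded the lowest 6.88-fold on average over the libraries (6.00 to 7.96 within single libraries). Levels between genes are given as RPKM, reads per kilobase of exon, scaled to library size. Averaged over all 6 libraries, Drosha was highest at 27.3 ± 1.31 RPKM (SD, n = 6), above 92.9% of all tested genes, and Ago3 lowest at 3.997 ± 0.40, above 56.4%. The order was Drosha, Ago2, Ago1, Tnrc6b, Xpo5, Tnrc6a, Mov10, Dicer1, Dgcr8 and Ago3. Each gene exceeded the next in all 6 libraries, except that Xpo5 exceeded Tnrc6a in 5 of 6. The ranges over libraries overlapped for 4 neighbouring pairs: Ago1 with Tnrc6b, Tnrc6b with Xpo5, Xpo5 with Tnrc6a, and Mov10 with Dicer1. Within a library, the first-named gene of each of these pairs was still the higher in all 6, or in 5 of 6 for Xpo5 and Tnrc6a. Levels per length rest on the full annotated exons, which include ends that a given cell type may not use. They also include bases shared with other genes, 17.1% of those of Dgcr8, where reads could not be given to a single gene. The level of Dgcr8 may thus be understated, and its place below Dicer1 is not settled.

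**Figure D1:**
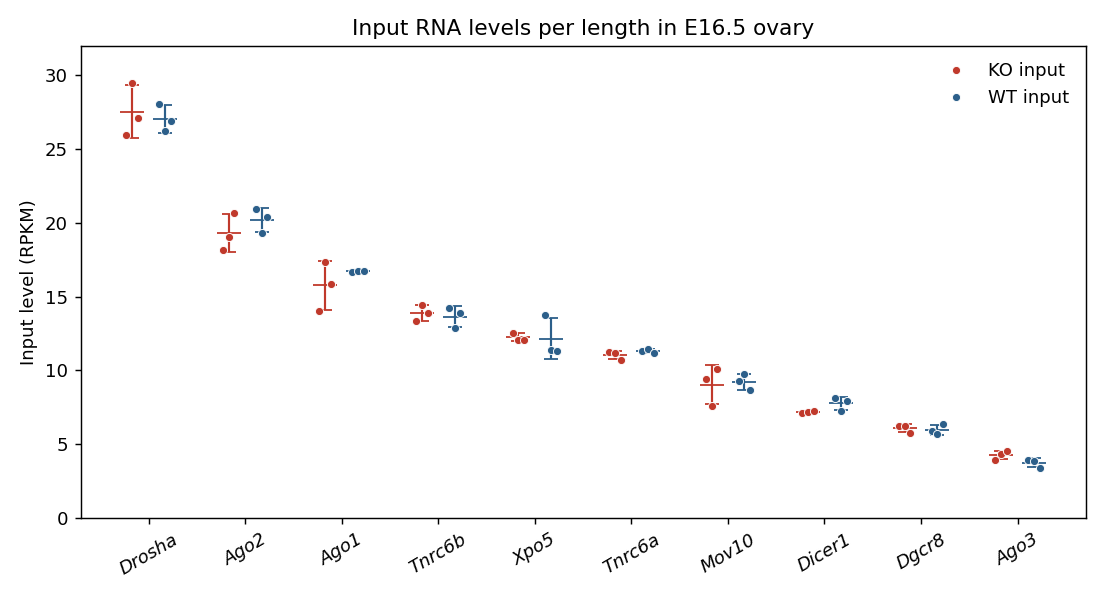
Input level (RPKM, linear axis) of the 10 genes in each library, ordered by mean level. Points are libraries (3 KO, red; 3 WT, blue), and bars show the mean and SD of each group. Drosha sits highest at a mean of 27.3 RPKM and Ago3 lowest at 3.997, and within each gene the KO and WT points overlap.

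The pair that forms the Microprocessor was unequal. Drosha (ENSMUSG00000022191, chr15:12824901-12935377, plus strand, 37 exon blocks, 5935 bp of exon) stood at 26.0, 29.5 and 27.1 RPKM in KO and 28.1, 26.2 and 26.9 in WT. Dgcr8 (ENSMUSG00000022718, chr16:18071812-18107110, minus strand, 15 blocks, 7696 bp) stood at 6.23, 6.26 and 5.78 RPKM in KO and 5.93, 5.69 and 6.34 in WT. The ratio of Drosha to Dgcr8 was 4.17 to 4.74 over the 6 libraries. Per length, the Dgcr8 share of the pair was 18.1% ± 1.04 for KO against 18.1% ± 0.86 for WT (SD, n = 3 each). The full exon length counts shared bases, 17.1% for Dgcr8 and 1.21% for Drosha. The ratio may thus be overstated and the share understated, and neither was computed on unshared bases.

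Downstream of them, Xpo5 (ENSMUSG00000067150, chr17:46513708-46554524, plus strand) ran from 11.3 to 13.8 RPKM. Dicer1 (ENSMUSG00000041415, chr12:104654001-104718211, minus strand, 28 blocks, 16750 bp) ran from 7.09 to 8.13 RPKM, between 0.243 and 0.294 of the Drosha level. The counts per gene do not separate the somatic form of Dicer1 from the shorter form known from rodent oocytes.

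Among the 3 Argonaute genes described here, Ago2 and Ago1 were the abundant transcripts. A further Argonaute gene, Ago4, was not analysed here and is not part of the shares. Ago2 (ENSMUSG00000036698, chr15:72967693-73056784, minus strand) is the Argonaute best known for cutting its targets, and it made up 49.1% ± 2.07 of the summed RPKM of the 3 in KO and 49.7% ± 1.11 in WT. Ago1 (ENSMUSG00000041530, chr4:126328805-126362376, minus strand) made up 40.0% ± 2.25 and 41.1% ± 0.93. Ago3 (ENSMUSG00000028842, chr4:126225497-126323349, minus strand), the neighbour of Ago1, made up 10.8% ± 0.19 and 9.17% ± 0.72 (SD, n = 3 each, throughout). By library the Ago3 share was 10.9%, 10.6% and 11.0% in KO and 9.51%, 9.66% and 8.34% in WT. The 3 KO values were the higher ones, in 1 of 7 such shares computed for the families. Shares of a family depend on each other, so the 7 are not independent. No background over other genes was computed for such shares. The CPM of Ago3 itself overlapped between the groups and did not pass (adjusted p = 0.764, edgeR). Of the GW182 genes, Tnrc6b (ENSMUSG00000047888, chr15:80595514-80825286, plus strand) exceeded Tnrc6a (ENSMUSG00000052707, chr7:122723108-122794519, plus strand) by 1.12 to 1.30 times. Mov10 (ENSMUSG00000002227, chr3:104702152-104725879, minus strand) ranged from 7.56 RPKM in KO replicate 2 to 10.1 in KO replicate 3.

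None of the 10 genes passed the test of KO over WT input (quasi-likelihood test of edgeR, Benjamini-Hochberg adjusted p under 0.05), where 0.0422% of all tested genes passed. DESeq2 and limma-voom also called 0 of them. The estimates were positive for 5 genes and negative for 5, with a median log2 change of -0.012, against -0.0020 over all genes tested. Ago3 alone had an unadjusted p under 0.05, and it was higher in KO. Over all genes 5.90% had such a p, 2.90% with higher and 3.00% with lower levels in KO. The groups overlapped in CPM for all 10, while 10.9% of tested genes had groups without overlap.

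The intervals give the range of changes that fits each gene's own estimate, and are not adjusted for the number of genes. The 95% intervals of the 10 log2 changes lay between -0.25 and 0.36, that is, between 0.839-fold and 1.29-fold of the WT level. For Drosha the change was 0.026 (interval -0.11 to 0.16), for Dgcr8 0.026 (-0.15 to 0.20) and for Xpo5 0.0095 (-0.16 to 0.17). For Ago2 it was -0.064 (-0.20 to 0.068) and for Ago1 -0.083 (-0.24 to 0.069). For Tnrc6a it was -0.034 (-0.16 to 0.097), for Tnrc6b 0.026 (-0.10 to 0.15) and for Mov10 -0.035 (-0.24 to 0.17). A change as large as that of Fmr1 itself lay outside every one of these intervals.

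The 2 estimates farthest from 0 were those of Ago3 and Dicer1. Ago3 stood at 65.3, 71.9 and 74.9 CPM in KO and 65.5, 63.8 and 56.0 CPM in WT. The groups touched at KO replicate 1 and WT replicate 1. This is a log2 change of 0.20 (SE 0.081, adjusted p = 0.764, edgeR), with 0.13 to 0.25 when single libraries were left out. Dicer1 stood at 119, 119.9 and 122 CPM in KO and 136, 122 and 132 CPM in WT. Its KO libraries were tightly grouped, and WT replicate 2 fell among them. This is a log2 change of -0.11 (SE 0.067, adjusted p = 0.905, edgeR).

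**Figure D2:**
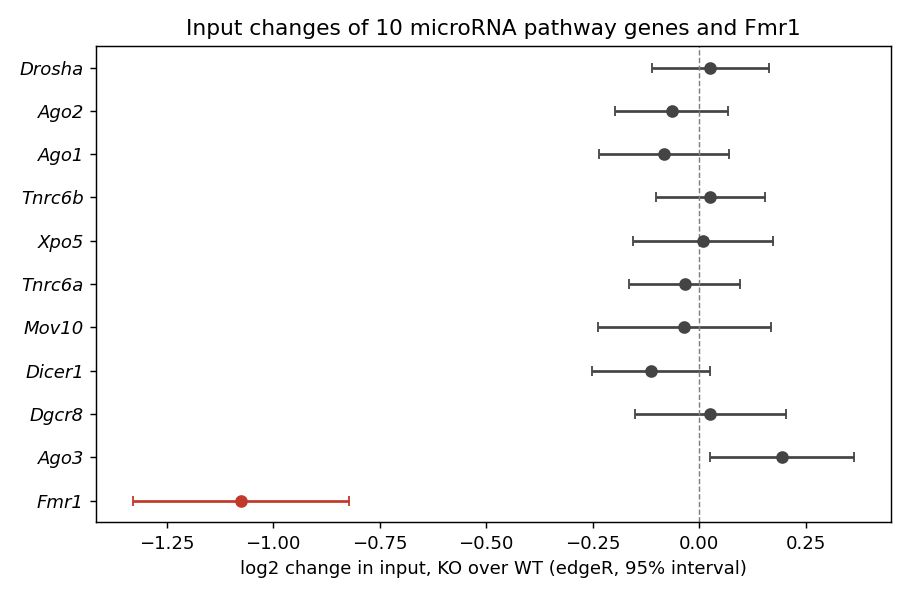
Estimated log2 change in input, KO over WT, for the 10 genes and for Fmr1 (points; bars are 95% intervals from edgeR). Fmr1, the one point past the threshold (red), lies at -1.08, and the intervals of the 10 genes stay between -0.25 and 0.36.

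The RIP table gives the authors' fold enrichments, a linear ratio per row and library. What the ratio is relative to, and where on a transcript a row lies, is not given in the sources used here. Of the 10 genes, 8 had rows, 21 in all, where 29.6% of the genes tested in input had at least 1. Among the 3074 tested genes with at least the length and the level per length of the lowest member on each, 66.5% had a row. Dicer1 and Tnrc6b had 4 rows each, Dgcr8, Ago1 and Mov10 had 3, Xpo5 had 2, and Drosha and Tnrc6a had 1. Ago2 and Ago3 had none. The genes without a row averaged 6084 (Ago2) and 1450.5 (Ago3) counted reads per input library, against 7162 for Tnrc6b with 4 rows and 1117 for Mov10 with 3. Whether depth bears on having a row was not tested. Rows of a gene share their transcript and are not replicates of each other. They are numbered here by falling WT mean.

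In WT the members' ratios lay around those of the table's median row, and in KO mostly under it. In WT the 21 row means ran from 1.13 to 2.95 with a median of 1.75, where the median row of the table had 1.77, and 10 of the 21 lay above it. In the KO libraries, the study's background, the row means ran from 0.980 to 2.97 with a median of 1.45 against 1.76 for the table, and 5 of 21 lay above the table's median. Ratios above 1 were thus usual in the KO background too: 20 of the 21 rows had a KO mean above 1. This held for the table at large and is no trait of the members. A KO mean of 1.03, that of the Drosha row, lay above only 2.43% of all rows.

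**Figure D3:**
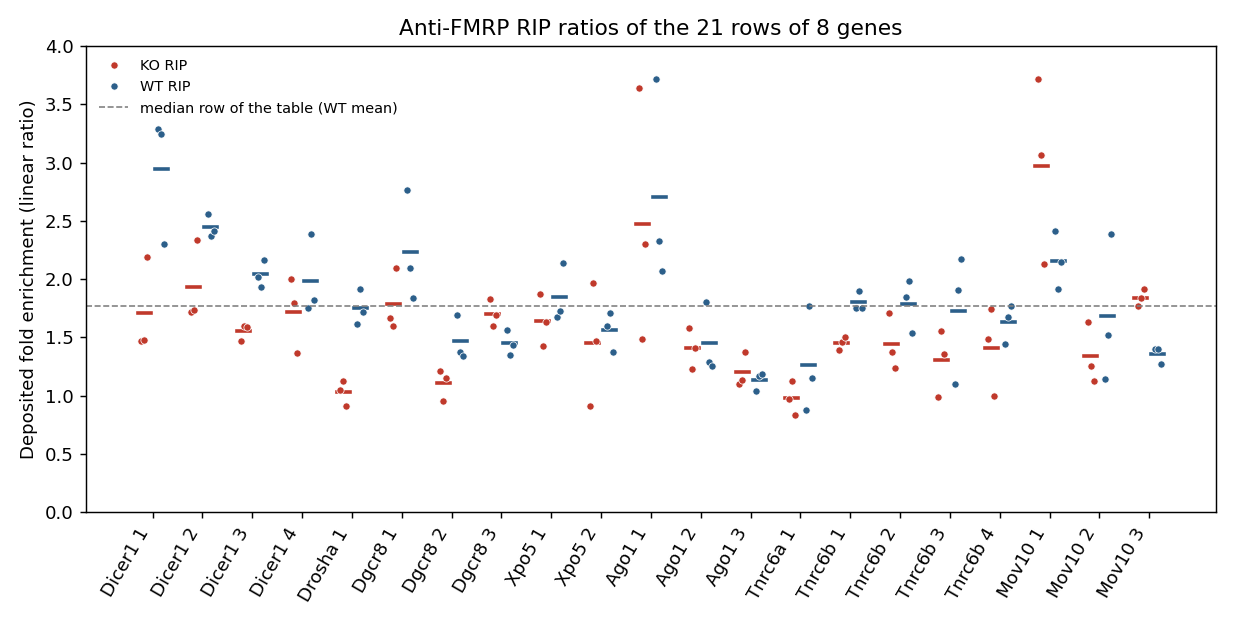
Deposited fold enrichment (linear ratio) of the 21 rows of 8 genes in each RIP library. Points are libraries (3 KO, red; 3 WT, blue), short lines are group means, and the dashed line is the table's median WT mean, 1.77. Dicer1 rows 1 to 3 and the Drosha row have all WT points above all KO points, whereas Mov10 row 3 has them below.

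None of the 21 rows passed the test of WT over KO (limma on log2(ratio + 1), Benjamini-Hochberg adjustment at 0.05), and neither did any of the 14365 rows tested (0.00%), a set that leaves out the row of Fmr1. The estimate was higher in WT for 17 rows and higher in KO for 4, where 49.5% of all tested rows were higher in WT. The median difference was 0.18 on that log2 scale, against -0.0021 over all rows. At an unadjusted p under 0.05, 5 rows were higher in WT and 1 was higher in KO. Over the whole table these shares were 5.98% and 2.88%, or 8.85% in all. The 5 became 3 without KO replicate 2 or without WT replicate 3, and the 1 became 2 without KO replicate 3. In 6 rows all WT values lay above all KO values, and in 2 all lay below, where 8.39% and 6.77% of tested rows did so. The rows come from 8 genes, so these counts hold fewer than 21 independent observations.

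The row with the smallest p among the members was that of Drosha, the enzyme of the first cut. Its ratio was 1.05, 1.13 and 0.912 in KO and 1.61, 1.92 and 1.72 in WT. The groups were well apart, with every WT value above every KO value, and the KO mean of 1.03 lay above that of 2.43% of the table's rows. WT lay 1.70-fold above KO by group means (log2 difference 0.44, SE 0.080, 95% interval 0.25 to 0.63, adjusted p = 0.375, limma). Here and below, log2 differences of rows and their intervals are of log2(ratio + 1), while folds are of the deposited ratios. The intervals therefore do not bound the folds. The row ranked 23 by p among all rows tested. Its difference ran from 0.40 to 0.48 with single libraries left out. In the input the log2 change of Drosha, there given as KO over WT, was 0.026. The part of input levels in the ratio was not tested.

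All 4 Dicer1 rows had higher WT means, and in 3 of them the groups did not overlap. Row 1 had ratios of 1.47, 1.48 and 2.19 in KO and 3.29, 3.25 and 2.30 in WT, a 1.72-fold difference. WT replicate 3 and KO replicate 3 came close to each other, and the other libraries were far apart. The log2 difference was 0.54 (SE 0.16, adjusted p = 0.462, limma), the largest of the members, and the WT mean of 2.95 lay above 85.0% of rows. Row 3 had 1.47, 1.60 and 1.59 in KO and 2.02, 1.94 and 2.17 in WT, 1.32-fold higher in WT (adjusted p = 0.490, limma). Row 2 had 1.72, 1.74 and 2.34 in KO and 2.56, 2.37 and 2.41 in WT, with KO replicate 3 just under the lowest WT value. In row 4, at 1.72 ± 0.33 in KO and 1.99 ± 0.35 in WT (SD, n = 3), the groups overlapped. In the input, Dicer1 stood in KO at 92.4% of its WT level, a difference that did not pass.

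Dgcr8 had no single direction. Row 2 had 1.21, 0.956 and 1.15 in KO and 1.69, 1.38 and 1.34 in WT, 1.33-fold higher in WT without overlap (log2 difference 0.23, SE 0.088, adjusted p = 0.516, limma). Row 3 had 1.83, 1.60 and 1.69 in KO and 1.57, 1.35 and 1.44 in WT, 1.18-fold higher in KO, also without overlap (log2 difference -0.14, SE 0.081, adjusted p = 0.673, limma). Row 1, at 1.79 ± 0.27 in KO and 2.23 ± 0.48 in WT, overlapped. The opposite directions of rows 2 and 3 within a single gene were not tested against each other.

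Row 2 of Dgcr8 is the one tied to the hairpins printed above. The same 6 values were listed for 2 further identifiers, ENSMUSG00000080452 and ENSMUSG00000093246. Both are features of the count files inside exon block 4 of Dgcr8, on its strand, at chr16:18102103-18102181 and chr16:18102414-18102501, in the coordinates of the count files. They are 79 and 88 bp long with starts 311 bp apart, and the RefSeq hairpins of miR-1306 and miR-3618 have the same lengths, strand and distance in their own build. The sources hold no identifier that links the features to the hairpins. Rows that repeat the values of another row were frequent in the table (1536 of 14447). No reads were counted for either feature in any input library. The counting command carried no option to count reads that lie in more than 1 gene, and all bases of both features are also Dgcr8 exon, so the zeros say nothing about RNA at this place. The row's KO mean of 1.11 was low for the table, above 4.66% of rows, and none of its 6 values reached the median of its column.

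**Figure D4:**
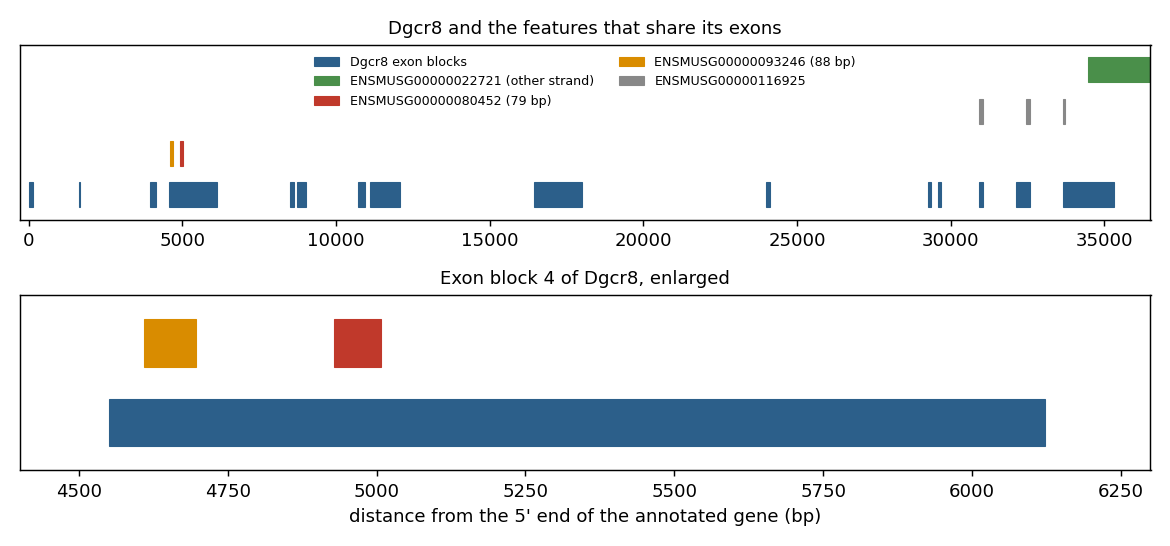
Exon blocks of Dgcr8 (blue) and the other annotated features that share bases with them, by distance in bp from the gene's 5′ end (top, whole gene; bottom, exon block 4). The 79 and 88 bp features (red and orange) lie wholly inside exon block 4, which is 1573 bp long, and the gene on the other strand (green, running on past the right edge) overlaps the last block.

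The overlaps also limit the gene counts. Of the exonic bases of Dgcr8, 17.1% belong to other genes as well, 825 of them to ENSMUSG00000022721 on the opposite strand, so reads there could not be given to Dgcr8 alone. Ago2 shares 219 bases (1.56%) with ENSMUSG00000068391 on the opposite strand. Drosha, Tnrc6a and Tnrc6b share 1.21%, 1.13% and 0.346% of theirs, and Dicer1, Xpo5, Ago1, Ago3 and Mov10 share none.

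The exporter and the GW182 genes had higher WT means in all of their rows. Tnrc6b row 1 had 1.39, 1.46 and 1.50 in KO and 1.76, 1.90 and 1.75 in WT, a 1.24-fold difference without overlap (log2 difference 0.19, SE 0.075, adjusted p = 0.518, limma). Its SDs of 0.058 and 0.083 were the smallest of the gene's 4 rows. Its other 3 rows had differences of 0.20, 0.23 and 0.14, all with overlap. The single row of Tnrc6a, 0.974, 1.13 and 0.834 in KO and 0.877, 1.77 and 1.15 in WT, overlapped and was also listed for ENSMUSG00000110230, which shares 143 exonic bases with Tnrc6a. Its highest value, in WT replicate 2, stood well above the other 5, and without that library the row did not pass the filter on low values and has no estimate. The 2 rows of Xpo5 had differences of 0.11 and 0.086 with overlap, and the second became -0.075 without KO replicate 1.

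Of the 3 Argonaute genes described here, only Ago1 had rows, and these did not separate the genotypes. Row 1 had 3.64, 1.49 and 2.30 in KO and 3.71, 2.33 and 2.07 in WT. Replicate 1 was highest in both genotypes, and the spread within a group exceeded the difference between the means (2.47 ± 1.08 and 2.70 ± 0.89; SD, n = 3). Rows 2 and 3 had differences of 0.023 (interval -0.23 to 0.28) and -0.044 (-0.22 to 0.14). The direction of rows 1 and 2 turned without KO replicate 2 (to -0.11 and -0.039) or without WT replicate 1 (to -0.066 and -0.071), and that of row 3 turned without KO replicate 3 (to 0.012).

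Mov10 had higher KO means in 2 of its 3 rows. Row 3 had 1.77, 1.84 and 1.92 in KO and 1.40, 1.40 and 1.28 in WT, a 1.35-fold higher mean in KO without overlap (log2 difference -0.27, SE 0.074, 95% interval -0.44 to -0.094, adjusted p = 0.438, limma). It stayed between -0.28 and -0.25 with any single library left out. Row 1 had 3.72, 3.07 and 2.13 in KO and 2.41, 1.92 and 2.14 in WT, with KO replicate 3 inside the WT range (log2 difference -0.31, SE 0.18). Row 2 pointed the other way at 0.18, through 1 high value of 2.39 in WT replicate 3, without which it was -0.0070. Input levels of Mov10 were 50.6 ± 7.38 CPM for KO and 51.8 ± 3.08 for WT (SD, n = 3).

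**Figure D5:**
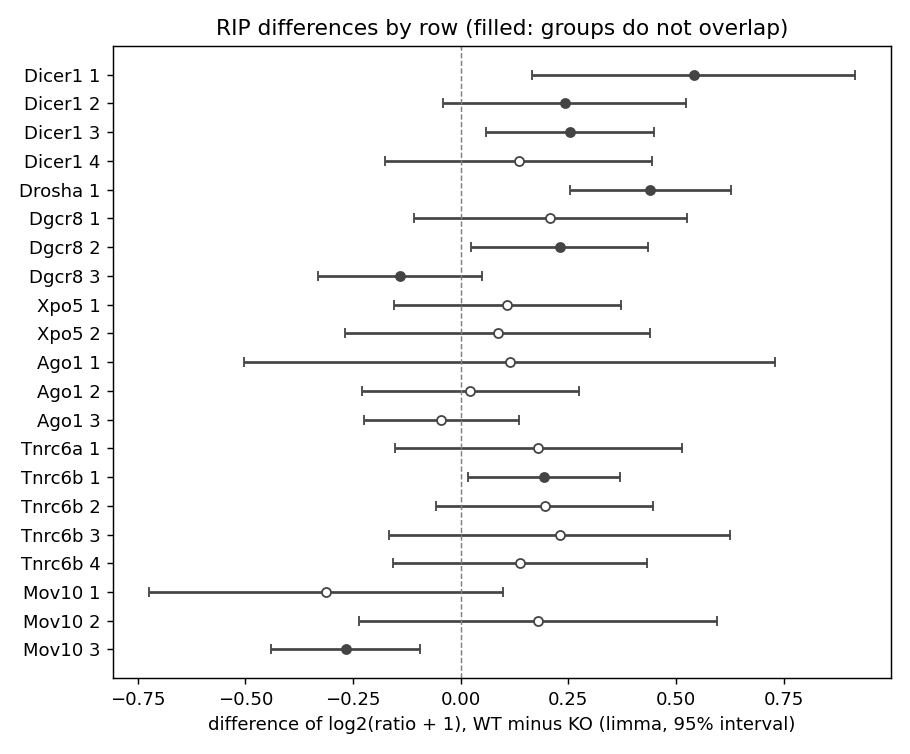
Difference of log2(ratio + 1), WT minus KO, for each of the 21 rows (points; bars are 95% intervals from limma). Filled points mark the 8 rows whose groups do not overlap. Dicer1 row 1 lies farthest to the right at 0.54 and Mov10 row 1 farthest to the left at -0.31, and no row passed after adjustment.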

How the data were processed

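Read counts per gene of 6 input libraries were deposited without normalization. They were made with featureCounts 1.6.3 over exons with the Ensembl 104 annotation, per the file headers, with no option for strand, read pairs or reads in several genes or places. The submitters' processing notes also list FastQC, DESeq2 1.26.0, MACS2 2.1.0, BWA 0.7.12 and GRCm38 as build, with no roles. Coordinates of genes are those of the count files, whose annotation belongs to a later build, and none was converted. Hairpin coordinates and sequences are RefSeq's (GRCm38.p6). For RIP the authors deposited fold enrichment, a linear ratio, in 1 column for each of 6 libraries.

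Counts were tested with edgeR 4.0.16 in R 4.3.3 (TMM, filterByExpr, robust quasi-likelihood test, KO over WT). CPM and RPKM were computed from the deposited counts with TMM-scaled library sizes and the exonic lengths of the files. An SE is the absolute log2 change over the root of F, and 95% intervals rest on it. The WT over KO test of ratios used limma 3.58.1 with trended eBayes. It ran on log2(ratio + 1), centred by column median, after dropping rows whose mean was under 1. This filter also drops rows that are low in a single genotype, such as that of Fmr1, while all 21 rows of the members passed it. This scale understates changes of low ratios, and folds are of group means of the deposited ratios. Both fits ran over the whole table with Benjamini-Hochberg adjustment, and were tested on simulated data, where the filter on ratios could also remove rows made lower. Every simulated row of ratios was given the same spread, set below the root of the mean variance of the data's rows. That run therefore does not show how the test of ratios performs at the spread of these data. DESeq2 1.42.0 and limma-voom were alternatives. All 10 members are named, with Fmr1. Genes, lists and tests were chosen with earlier results of these data known. The tables at hand held 0 of the Ensembl identifiers, so other genes of the pathway, Ago4 among them, were not analysed here. The biological coefficient of variation of the input was 12.1%, and no replicates agreed within sampling noise (chi-square over its degrees of freedom from 8.12 to 14.2).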

Additional observations from a re-analysis of the deposited data

How the results depend on the processing

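The count of 0 called genes in input and 0 called rows in RIP held under every alternative run: DESeq2, limma-voom, upper-quartile scaling, no low-count filter and each library left out for input, and pseudocounts of 0.1 and 10, no filter, no centring, quantile normalization, averaged rows and each library left out for RIP. Over the whole input table the 10 calls became 37 with DESeq2, 113 without the filter, 20 with the replicate block, 37 without KO replicate 1, 28 without WT replicate 2 and 5 without KO replicate 2, and 1 RIP row, that of Fmr1, passed without the filter on low values. None was a member. Fmr1 kept its call, with log2 changes of -1.25 to -0.97 over single libraries left out. Same-numbered KO and WT libraries did not deviate together (correlations of -0.071 to -0.034 in input and -0.60 to -0.22 in RIP). This gave no sign that the replicate numbers pair the samples. It cannot exclude pairing, since groups hold 3 libraries and the RIP libraries also split in a way that did not follow genotype. With the replicate block 0 members and 0 of their rows were called, and the change of Fmr1 was -1.09. The order of levels was the same by TPM. Within a library TPM and RPKM differ only by a constant and use the same exon lengths. This was therefore no independent check of the order.

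Signs turned for uncalled estimates with single libraries left out, and the cause was not tested. In input the log2 changes then ran from -0.026 to 0.066 (Drosha), -0.0083 to 0.069 (Dgcr8), -0.038 to 0.11 (Xpo5), -0.015 to 0.058 (Tnrc6b) and -0.12 to 0.081 (Mov10). In RIP the differences ran from -0.075 to 0.23 (Xpo5 row 2), -0.11 to 0.35 (Ago1 row 1), -0.071 to 0.081 (Ago1 row 2), -0.075 to 0.012 (Ago1 row 3) and -0.0070 to 0.34 (Mov10 row 2). The other members and rows kept their sign wherever they had an estimate. Of the 21 rows, 15 to 18 had higher WT estimates, and the median difference of 0.18 was 0.27 and 0.037 with the smaller and the larger pseudocount, which change the scale itself. Without WT replicate 2 the Tnrc6a row fell under the filter on low values and has no estimate, which leaves 20 rows. RIP counting error is unknown, since no depth comes with the ratios.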
